A study of Rattus norvegicus with 12 samples.

Results

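Smooth muscle cells and pericytes are the contractile cells that wrap blood vessels, and smooth muscle also rings the airways. The 31 genes described here were listed by symbol, 23 for the contractile apparatus and its regulation and 8 for pericytes, and all 31 were found among the 30045 gene symbols counted. They were measured by sequencing polyadenylated RNA from a piece of lung of each of 12 male Fischer 344 (F344/DuCrl) rats, bought at 3 months of age. Of these rats 6 breathed air in a whole-body chamber and 6 breathed crystalline nanocellulose (CNC, rod-shaped crystals made from plant cellulose) at 20 mg/m3. CNC exposure took place for 6 hours daily on 5 days of each week, 14 exposure days in all, and the lungs were collected 1 day after the last of them. All rats were of a single inbred strain and a single sex, and the labels do not say from which region of the lung each piece came.

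In smooth muscle, actin thin filaments slide along myosin once myosin light chain kinase has phosphorylated the regulatory light chain, and a phosphatase reverses that step. The genes of this apparatus are switched on largely by serum response factor with its coactivator myocardin, which acts at a DNA element called the CArG box. Pericytes sit on capillaries within the endothelial basement membrane. They depend on the platelet-derived growth factor receptor beta, which receives its ligand from the endothelium, and on Notch3, and in lung they merge into the smooth muscle of larger vessels.

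After CNC most pericyte genes and some of the contractile genes were called lower, by small amounts. In edgeR's quasi-likelihood fit, with p-values adjusted by Benjamini-Hochberg over all 15019 tested genes and a threshold of 0.05, 17 of the 31 members fell, where 11.4% of all tested genes fell. These were 7 of the 8 pericyte genes and 10 of the 23 contractile genes, and of all estimates, called or not, 8 of 8 and 22 of 23 lay below 0. Whether the 2 shares differ was not tested. No member was called higher by edgeR (0 of 31, where 13.2% of all tested genes rose), with 1 member higher at an unadjusted p below 0.05 and 1 called by each of the DESeq2 Wald test and limma-voom, in every case the filamin gene Flna. The median log2 fold change was -0.33 over the 8 pericyte genes and -0.24 over the 23 contractile genes, and 0 over all tested genes. Of the 17 called members 16 fell by less than 1.5-fold, the exception being Kcnmb2. In bulk tissue, fewer cells of a type and less RNA per cell cannot be told apart.

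**Figure D1:**
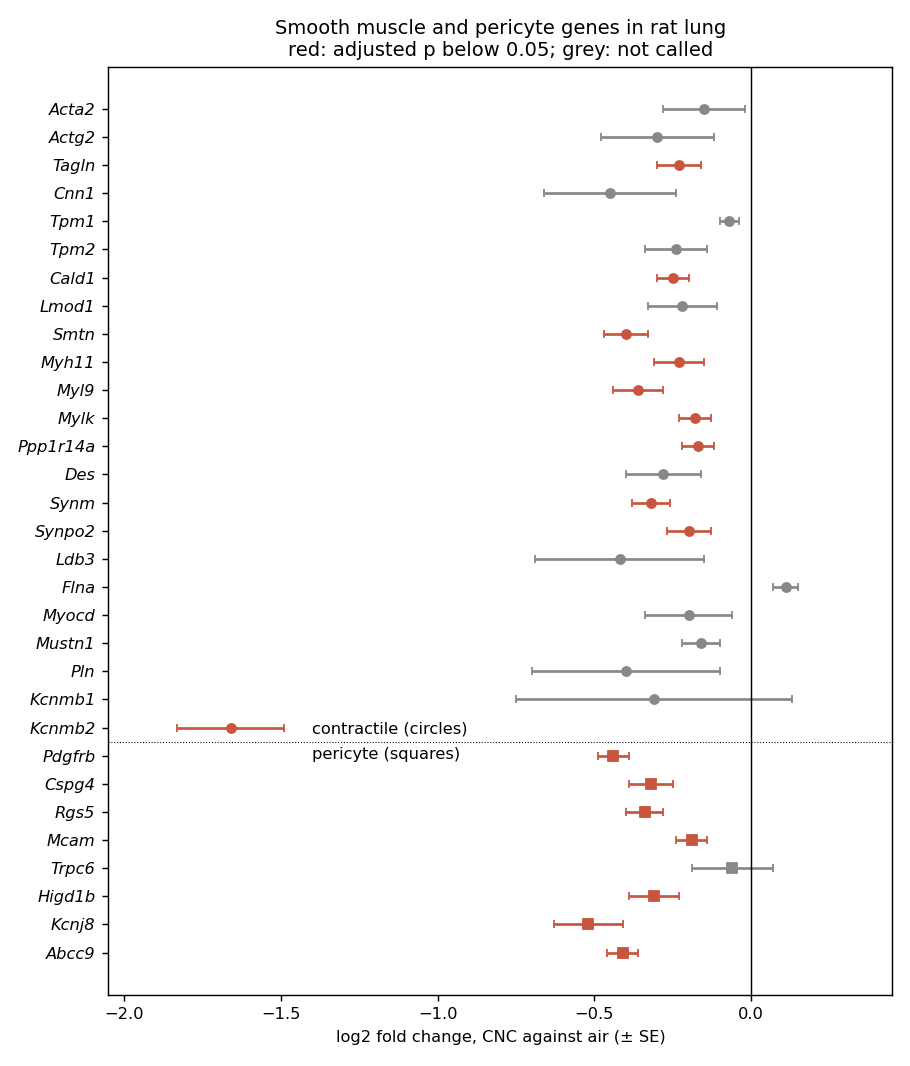
Log2 fold change of CNC against air with its standard error for each of the 31 members, 6 rats per group. Red marks the 17 members called lower by edgeR at an adjusted p below 0.05, grey the 14 others; 30 of the 31 estimates lie below 0, and Kcnmb2 lies far from the rest at -1.66.

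All 31 members passed the filter on low counts, and the markers that define each cell type were present in every library. Acta2, for instance, had between 450 and 1305 counts in the air libraries and between 632 and 1127 in the CNC libraries. Library totals ran from 8693259 to 16603697 counts.

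The proximal promoters of 5 members are shown, 2 that hold a CArG box or a close variant and 3 of the members that were lower in CNC without overlap of the groups. RefSeq gives a promoter window of 300 bases, 250 before the start and 50 after it, on build GRCr8, for 23 of the 31 members (24 windows, since Cald1 has a pair). Capitals mark a CArG box, or a CArG-like element in which 1 of the 6 central bases is G or C. The motif is its own reverse complement, so both strands were searched at once. A full CArG box was found in 1.64% of all 33469 windows and in 1 of the 24 member windows. Allowing the variant, which includes every full box, a match was found in 9.42% of all windows and in 2 of the 24 member windows, those of Acta2 and Ldb3. Only the bases upstream of the start are printed, 5′ to 3′ on the strand of the gene.
Acta2, smooth muscle alpha-actin, chr1:241172504-241172753, minus strand: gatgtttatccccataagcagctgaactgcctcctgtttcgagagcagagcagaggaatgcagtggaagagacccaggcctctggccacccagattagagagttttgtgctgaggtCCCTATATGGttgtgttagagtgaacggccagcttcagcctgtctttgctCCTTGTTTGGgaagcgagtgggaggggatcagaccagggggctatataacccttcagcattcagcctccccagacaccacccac
Ldb3, a Z-disc protein, chr16:9924680-9924929, minus strand: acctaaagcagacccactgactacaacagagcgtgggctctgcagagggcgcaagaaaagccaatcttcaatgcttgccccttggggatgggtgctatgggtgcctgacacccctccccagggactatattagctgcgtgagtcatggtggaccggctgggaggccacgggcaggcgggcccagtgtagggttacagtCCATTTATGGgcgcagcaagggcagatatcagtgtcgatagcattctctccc
Kcnmb2, a potassium channel beta subunit, chr2:116599049-116599298, plus strand: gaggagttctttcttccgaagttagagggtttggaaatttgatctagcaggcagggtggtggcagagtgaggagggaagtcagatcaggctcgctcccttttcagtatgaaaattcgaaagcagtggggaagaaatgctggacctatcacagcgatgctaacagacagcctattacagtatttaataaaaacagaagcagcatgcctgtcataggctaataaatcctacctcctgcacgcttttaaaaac
Kcnj8, the pore of the vascular ATP-sensitive potassium channel, chr4:177246549-177246798, minus strand: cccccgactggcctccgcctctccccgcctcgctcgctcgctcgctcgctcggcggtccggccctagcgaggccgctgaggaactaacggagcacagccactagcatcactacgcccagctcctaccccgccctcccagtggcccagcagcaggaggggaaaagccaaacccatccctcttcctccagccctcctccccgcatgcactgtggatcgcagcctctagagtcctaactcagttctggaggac
Abcc9, the sulfonylurea receptor subunit of the same channel, chr4:177386349-177386598, minus strand: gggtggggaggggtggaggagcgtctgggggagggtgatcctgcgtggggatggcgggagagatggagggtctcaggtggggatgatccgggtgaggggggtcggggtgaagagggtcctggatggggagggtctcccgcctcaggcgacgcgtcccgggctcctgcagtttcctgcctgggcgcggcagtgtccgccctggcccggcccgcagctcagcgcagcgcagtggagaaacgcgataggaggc

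In the Acta2 promoter the elements CCCTATATGG and CCTTGTTTGG begin 134 and 84 bases before the start, each a CArG-like variant, and in the Ldb3 promoter the full box CCATTTATGG begins 52 bases before it. A missing match says only that these letters are not in this window.

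Pericyte genes. Pdgfrb, the receptor through which pericytes respond to platelet-derived growth factor B, had a lowest, median and highest level of 182, 214 and 231 CPM (counts per 1000000, scaled by TMM) in the air rats and 147, 153 and 168 CPM in the CNC rats. Every CNC rat lay below every air rat. The fall was 1.36-fold (log2 fold change -0.44 ± 0.05 SE, edgeR adjusted p = 3.68e-05). Cspg4, the NG2 proteoglycan of the pericyte surface, ran from 67.1 through a median of 84.3 to 93.1 CPM in air and from 59.5 through 64.8 to 72.3 CPM in CNC. Its groups overlapped, with 4 of the 6 CNC rats below all air rats, and it fell 1.24-fold (edgeR adjusted p = 0.00483).

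Rgs5, a regulator that shortens signalling by G protein-coupled receptors, ran from 22 through a median of 25.4 to 26.9 CPM in air and from 18.3 through 19.9 to 21.3 CPM in CNC. Its groups did not overlap, and it fell 1.26-fold (edgeR adjusted p = 0.000707). Higd1b, a mitochondrial membrane protein gene used as a pericyte marker, fell 1.24-fold, from 21.1 ± 1.48 to 16.9 ± 2.27 CPM (SD, n = 6 per group, edgeR adjusted p = 0.0112), with 5 of 6 CNC rats below all air rats. Mcam, the adhesion molecule CD146, which endothelium also carries, fell 1.14-fold, from 394 ± 36.8 to 345 ± 14.7 CPM (SD, n = 6 per group, edgeR adjusted p = 0.0173), and 3 of 6 CNC rats were below all air rats. Trpc6, a calcium-permeable cation channel, was the pericyte member that did not pass, at 17.1 ± 3.97 CPM (air) and 16.6 ± 1.29 CPM (CNC; SD over 6 rats each; edgeR adjusted p = 0.794).

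Kcnj8 and Abcc9 encode the 2 subunits of the vascular ATP-sensitive potassium channel, whose opening relaxes the vessel wall. Their genes are neighbours on rat chromosome 4, with 0 annotated genes between them in RefSeq's GRCr8 table. Kcnj8 ran from 7.64 through a median of 9.6 to 12.6 CPM in air and from 5.95 through 6.84 to 7.49 CPM in CNC. Abcc9 ran from 80.9 through a median of 89.6 to 100.5 CPM in air and from 65.1 through 67.2 to 72.2 CPM in CNC. For both genes all 6 CNC rats lay below all air rats. Kcnj8 fell 1.43-fold (log2 fold change -0.52 ± 0.11 SE, edgeR adjusted p = 0.00333) and Abcc9 1.33-fold (log2 fold change -0.41 ± 0.05 SE, edgeR adjusted p = 3.73e-05). The promoters of the pair, printed above, hold no CArG box and no CArG-like element.

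Groups without overlap were seen in 6 of the 31 members, all lower in CNC, where 4.70% of all tested genes were lower in CNC without overlap. These 6 were the pericyte genes Pdgfrb, Rgs5, Kcnj8 and Abcc9 and the contractile-list genes Kcnmb2 and Synpo2.

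**Figure D2:**
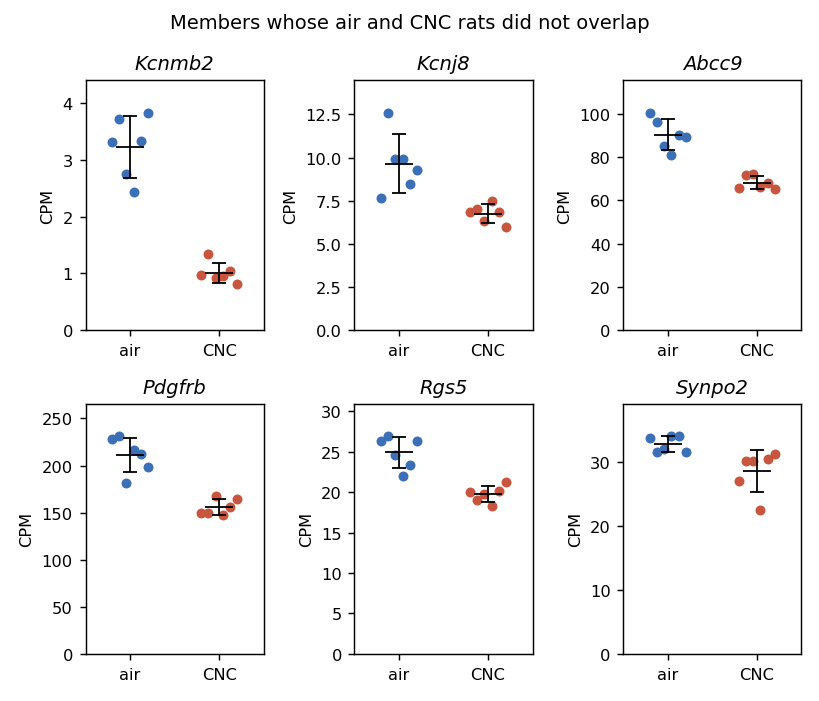
Level in CPM of the 6 members whose groups did not overlap, 1 point per rat, with the mean and SD of 6 rats as bars and each axis starting at 0. For Kcnmb2 the air rats lie between 2.44 and 3.83 CPM and the CNC rats between 0.807 and 1.34 CPM, whereas for Synpo2 the gap between the groups is narrow, 31.5 CPM in the lowest air rat and 31.2 CPM in the highest CNC rat.

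Channels and regulators of the contractile list. Kcnmb2, an accessory beta subunit of the large-conductance calcium-activated potassium channel, ran from 2.44 through a median of 3.32 to 3.83 CPM in air and from 0.807 through 0.969 to 1.34 CPM in CNC. It fell 3.17-fold (log2 fold change -1.66 ± 0.17 SE, edgeR adjusted p = 4.92e-06), the largest fall among the 31 members. Its level is low, with 241 counts summed over the air libraries and 77 over the CNC libraries. Kcnmb1, the beta subunit of the same channel that is typical of smooth muscle, had 61 and 49 summed counts, and its log2 fold change of -0.31 ± 0.44 SE did not pass (edgeR adjusted p = 0.669). No difference in Kcnmb1 was detected at these counts. Myocd, the coactivator myocardin itself, stood at 3.86 ± 0.516 CPM with air and at 3.38 ± 0.644 CPM with CNC (SD over 6 rats each, edgeR adjusted p = 0.36). Mustn1, a small nuclear protein gene of the musculoskeletal system, stood at 12.9 ± 0.796 and 11.5 ± 0.531 CPM (edgeR adjusted p = 0.087), and Pln, phospholamban, which restrains the calcium pump of the sarcoplasmic reticulum, at 2.53 ± 1.35 and 1.91 ± 0.53 CPM (edgeR adjusted p = 0.38).

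Myosin and its control. All 4 genes of this group fell. Myh11, the smooth muscle myosin heavy chain, ran from 172 through a median of 196 to 237 CPM in air and from 159 through 173 to 200.3 CPM in CNC. The groups overlapped, with 3 CNC rats below all air rats, and the fall of 1.17-fold had an edgeR adjusted p of 0.0395. Myl9, the regulatory light chain, ran from 50 through a median of 63.9 to 75.4 CPM in air and from 43.6 through 49.8 to 52.6 CPM in CNC and fell 1.28-fold (edgeR adjusted p = 0.0038). Mylk, the kinase of that light chain, fell 1.13-fold, from 701 ± 44.2 to 619.6 ± 32.3 CPM (SD, n = 6 per group, edgeR adjusted p = 0.0104). Ppp1r14a, which encodes CPI-17, an inhibitor of the myosin phosphatase, fell 1.12-fold, from 50.3 ± 2.13 to 44.7 ± 4.01 CPM (SD, n = 6 per group, edgeR adjusted p = 0.0334).

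Actin thin filament. Of 9 genes 3 fell and the other 6 did not pass, with all 9 estimates below 0. Acta2 ran from 52.2 through a median of 65.9 to 99.7 CPM in air and from 59.1 through 60.8 to 80 CPM in CNC, so the CNC rats lay inside the range of the air rats (log2 fold change -0.15 ± 0.13 SE, edgeR adjusted p = 0.453). Actg2, the enteric gamma-actin, also lay inside it, from 13.7 through 17.1 to 32.8 CPM in air and from 13.9 through 15.7 to 18.9 CPM in CNC (edgeR adjusted p = 0.257). Acta2 and Actg2 encode nearly identical proteins, and how the counting treated reads that fit both was not stated, so the split between them is uncertain.

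Smtn, smoothelin, an actin-binding protein of fully contractile smooth muscle, ran from 45.4 through a median of 56.8 to 60.8 CPM in air and from 39.7 through 41.3 to 46.6 CPM in CNC. With 5 CNC rats below all air rats, it fell 1.32-fold (log2 fold change -0.40 ± 0.07 SE, edgeR adjusted p = 0.000498). Cald1, caldesmon, which holds back the actin-activated myosin ATPase, fell 1.19-fold, from 289 ± 15.1 to 243 ± 20.3 CPM (SD, n = 6 per group, edgeR adjusted p = 0.00245), also with 5 CNC rats below all air rats. Tagln, the actin-binding protein transgelin or SM22, fell 1.17-fold, from 111 ± 13.1 to 94.9 ± 8.38 CPM (SD, n = 6 per group, edgeR adjusted p = 0.0325). Cnn1, calponin, ran from 9.63 through a median of 11.7 to 25.2 CPM in air and from 7.69 through 9.52 to 13.4 CPM in CNC and did not pass (edgeR adjusted p = 0.142). The tropomyosins Tpm1 and Tpm2 (edgeR adjusted p = 0.115 and 0.0988) and the filament nucleator leiomodin, Lmod1 (edgeR adjusted p = 0.175), had log2 fold changes of -0.07, -0.24 and -0.22.

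**Figure D3:**
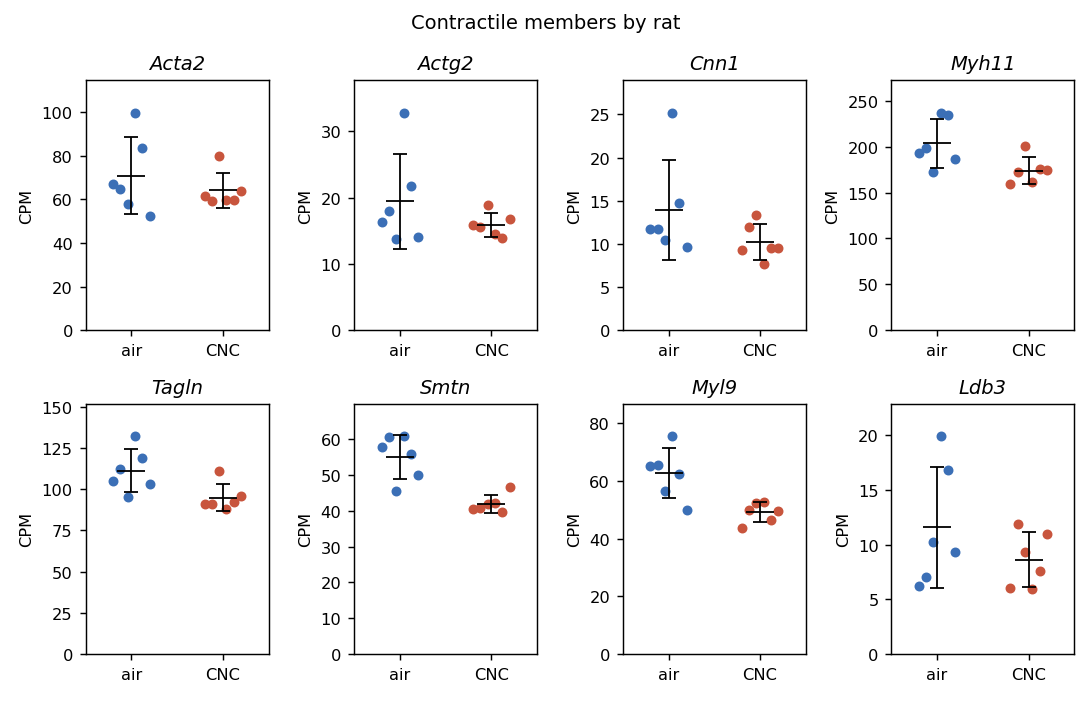
Level in CPM of 8 contractile members, 1 point per rat in the order of replicate 1 to 6 from left to right, with the mean and SD of 6 rats as bars and each axis starting at 0. Each of the 8 is highest of all rats in air replicate 4 (for Acta2, 99.7 CPM), and for Smtn 5 CNC rats lie below all air rats.

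Intermediate filaments and linkers. Synm, synemin, a partner of desmin and vimentin filaments, ran from 376 through a median of 474 to 532 CPM in air and from 339 through 375 to 389 CPM in CNC. It fell 1.25-fold (edgeR adjusted p = 0.00171), with 3 CNC rats below all air rats. Synpo2, a Z-disc and actin-bundling protein gene, fell 1.15-fold (edgeR adjusted p = 0.0422). Des, desmin, stood at 56.8 ± 12.7 and 46.7 ± 4.42 CPM (SD, n = 6 per group, edgeR adjusted p = 0.0912), and Ldb3 at 11.6 ± 5.53 and 8.63 ± 2.52 CPM (edgeR adjusted p = 0.298). Flna, filamin A, which crosslinks actin in nearly all cells, had the only estimate above 0. It ran from 1074 through a median of 1171 to 1273 CPM in air and from 1216 through 1253 to 1338 CPM in CNC (log2 fold change 0.11 ± 0.04 SE), just short of the threshold by edgeR (adjusted p = 0.0517) and past it by the DESeq2 Wald test (adjusted p = 0.0269) and limma-voom (adjusted p = 0.0413).

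The air rats differed among themselves in many contractile genes, along with heart muscle transcripts. Air replicates 4 and 5 were the highest 2 of the 6 air rats for 11 of the 23 contractile members (Acta2, Actg2, Tagln, Cnn1, Tpm2, Lmod1, Myh11, Des, Synpo2, Ldb3 and Pln) and for 0 of the 8 pericyte members. The 16 markers of heart muscle, which also lines the pulmonary veins of rodents, summed to 486 and 360.1 CPM in those 2 rats and to between 17.8 and 150.1 CPM in the other 4 air rats and between 17.9 and 143 CPM in the CNC rats. Of the 14 heart markers tested 1 fell and 0 rose, where 11.4% of all tested genes fell and 13.2% rose. None of the heart markers was at 0 in all libraries. Des, Ldb3, Pln, Synm, Synpo2 and Tpm1 are also expressed by heart muscle. Of these, Synm and Tpm1 were not among the 11 members highest in air replicates 4 and 5. Synm was lowest there, at 376 and 441 CPM against 468 to 532 CPM in the other air rats. Tpm1 stood at 308 and 307 CPM there and at 286 to 308 CPM in the others. Within CNC, replicate 3 was the highest rat for 11 contractile and 4 pericyte members.

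Without air replicates 4 and 5, 7 contractile members and the same number of pericyte members were called lower (7 of 8). Because these rats were the highest air rats for 11 contractile and 0 pericyte members, leaving them out shrinks the falls of those 11 members by construction. Other contractile members could move the other way, as Synm did from -0.32 to -0.41 and Kcnmb2 from -1.66 to -1.74. The changes in this fit are therefore no support for a difference between the sides. Tagln, Myh11 and Synpo2 lost their calls (edgeR adjusted p = 0.152, 0.205 and 0.126). Acta2, Actg2, Ldb3 and Pln turned to log2 fold changes of 0.07, 0.02, 0.08 and 0.19, none of them called, and the contractile median moved from -0.24 to -0.12. Pdgfrb, Abcc9 and Kcnmb2 were at -0.44, -0.45 and -1.74 in that fit, and Synm and Smtn at -0.41 and -0.36, all still called. Without CNC replicates 3 and 6 instead, the contractile median was -0.32, and 10 contractile and 7 pericyte members were called. Tagln, Myh11 and Synpo2 then kept their calls (edgeR adjusted p = 0.00985, 0.0218 and 0.0264). CNC replicate 3 was the highest CNC rat for 11 contractile and 4 pericyte members, so this removal deepens the falls of those members by construction. With the mean log2 level of 14 heart markers as a covariate, 8 contractile and 7 pericyte members were called, Myh11 and Synpo2 being lost (edgeR adjusted p = 0.0524 and 0.0594). The contractile median was then -0.19 and the pericyte median -0.34. Members not called in either fit moved towards 0, Ldb3 from -0.42 to -0.09, Pln from -0.4 to -0.1 and Cnn1 from -0.45 to -0.29. Smtn and Cald1 stayed at -0.4 and -0.25. Leaving out single rats took the contractile count to 6 without air replicate 2, without air replicate 4 or without CNC replicate 1, while the pericyte count was 7 in all 12 such fits. Of all tested genes 11.4% were called lower with all rats. Without air replicate 2, air replicate 4 or CNC replicate 1 that share was 9.12%, 11.4% and 9.24%.

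**Figure D4:**
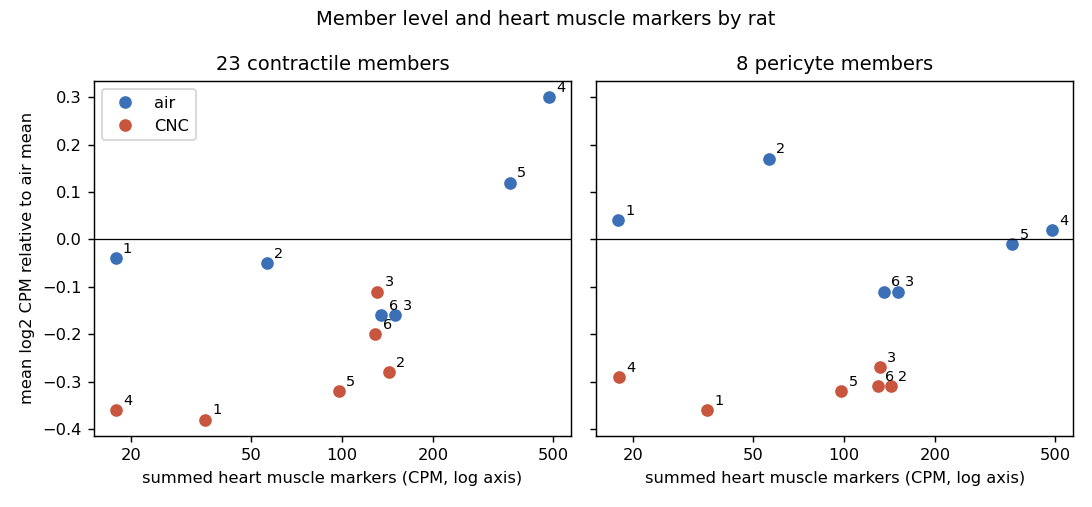
Mean log2 CPM of the contractile members (left) and the pericyte members (right), relative to the air mean, against the summed level of 16 heart muscle markers in CPM on a log axis, 1 point per rat labelled with its replicate number. Contractile means reach 0.30 and 0.12 in air replicates 4 and 5, and CNC replicate 3 (-0.11) lies above air replicates 3 and 6 (-0.16 each), while all CNC rats lie below all air rats in the pericyte mean.

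Within each rat 2 ratios that do not depend on library scaling were tested, each of a gene of the pericyte list to a gene of the contractile list. The pairs came from members chosen with earlier results known, and they do not stand for the sides as a whole. The log2 ratio of Pdgfrb to Myh11 counts was 0.06 ± 0.17 in air and -0.15 ± 0.07 in CNC (SD, n = 6 per group), a difference of -0.21 that missed the threshold once adjusted over the 2 ratios (2-sided exact permutation test over all 924 splits, p = 0.0281, adjusted p = 0.0563). The log2 ratio of Cspg4 to Acta2 was 0.24 ± 0.25 in air and 0.05 ± 0.12 in CNC, a difference of -0.19 (exact permutation p = 0.134, adjusted p = 0.134). In both ratios air replicates 4 and 5 were the lowest of the air rats. Without them the differences were -0.31 and -0.33, which is given as a value with no test, since leaving out the lowest air rats widens the difference by construction. Without CNC replicates 3 and 6 the differences were -0.21 and -0.16 (exact permutation adjusted p = 0.143 and 0.238). Over all 12 rats neither ratio passed the threshold, which does not show that the genes of a pair fell equally.

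**Figure D5:**
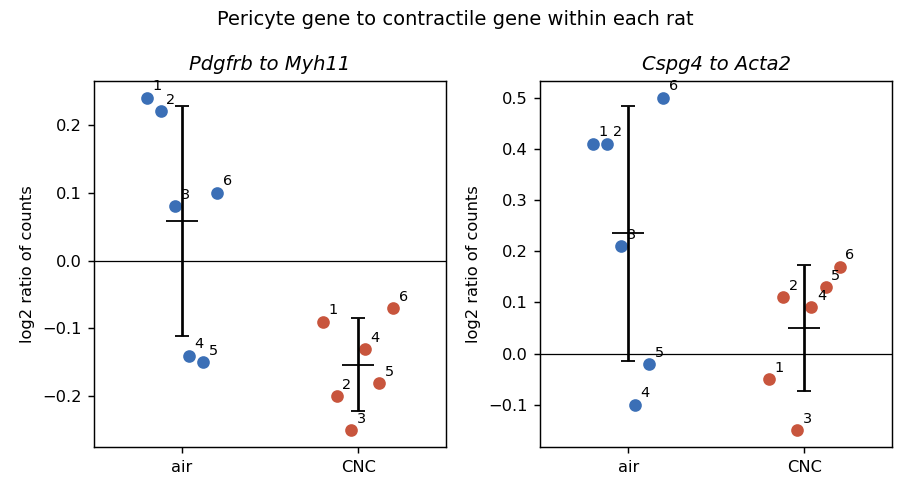
Log2 ratio of counts of a pericyte gene to a contractile gene in each rat, labelled with its replicate number, with the mean and SD of 6 rats as bars. For Pdgfrb to Myh11 the air rats run from -0.15 to 0.24 and the CNC rats from -0.25 to -0.07, with air replicates 4 and 5 among the CNC rats.

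The wider programme was described with 3 companion lists, whose counts stand beside 11.4% of all tested genes that fell and 13.2% that rose. Among genes that set calcium, nitric oxide and other contraction signals in smooth muscle, 8 of 18 tested fell and 0 rose (0 at an unadjusted p below 0.05 and 0 by DESeq2 and limma-voom), and the median log2 fold change was -0.11. Of the 4 genes with the smallest adjusted p, 3 belong to the nitric oxide and cyclic GMP arm. Gucy1a3 and Gucy1b3, the subunits of soluble guanylate cyclase, fell 1.25-fold and 1.26-fold (edgeR adjusted p = 0.000275 and 7.86e-05). Pde5a, the phosphodiesterase that degrades cyclic GMP, fell 1.21-fold (edgeR adjusted p = 0.000146), and the plasma membrane calcium pump Atp2b4 fell 1.25-fold (edgeR adjusted p = 1.92e-05). Over the whole list the groups did not overlap for 4 of the 18 tested genes, these same 4, where 4.70% of all tested genes were lower in CNC without overlap. These 4 were picked by smallest adjusted p, so their lack of overlap is no separate support, and they do not speak for the whole arm. Elsewhere in the list Prkg1 fell 1.38-fold (edgeR adjusted p = 0.0149), while Mrvi1 and Itpr1 did not pass (edgeR adjusted p = 0.949 and 0.144). The transcription factor Srf, on which myocardin acts, stood at 83.2 CPM in air and 83.5 CPM in CNC, with a log2 fold change of 0.01 (edgeR adjusted p = 0.927).

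Among adhesion and filament partners 10 of 21 tested fell and 1 rose, with a median of -0.12. Cav1, which forms caveolae and is abundant in endothelium and type 1 epithelium too, fell 1.29-fold (edgeR adjusted p = 4.12e-05), and vinculin, Vcl, fell 1.12-fold (edgeR adjusted p = 0.000396). The member that rose was Pdlim7, a PDZ and LIM domain adaptor, by 1.19-fold (edgeR adjusted p = 0.000919). Palld was listed at 0 in all libraries.

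Among genes of the PDGF, Notch and angiopoietin signals that tie mural cells to endothelium, 15 of 21 tested fell and 0 rose (2 at an unadjusted p below 0.05, Anpep and Steap4, and 0 by DESeq2 and limma-voom), with a median of -0.30. Vtn, vitronectin, a marker of brain pericytes in mouse, fell 1.38-fold, from 88.7 ± 6.44 to 64.2 ± 2.61 CPM (SD, n = 6 per group, edgeR adjusted p = 5.02e-06). The angiopoietin receptor Tek, an endothelial gene, fell 1.23-fold (edgeR adjusted p = 0.000311). The receptors for angiotensin and endothelin that constrict vessels fell as well, Agtr1a 1.27-fold (edgeR adjusted p = 0.000866) and Ednra 1.18-fold (edgeR adjusted p = 0.00179).

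Markers of some neighbouring cell types moved with these genes, where 11.4% of all tested genes fell and 13.2% rose. Of 10 endothelial markers 9 fell and 0 rose, and their sum was 6051 to 7126 CPM in air and 5038 to 5723 CPM in CNC. Of 6 tested fibroblast markers 5 fell and 0 rose, with sums of 2169.9 to 2757 CPM and 1846 to 2087 CPM, and of 5 tested adipocyte markers 3 fell and 0 rose, with sums of 127 to 162 CPM and 88 to 110.2 CPM. Of 5 tested mesothelial and 2 tested skeletal muscle markers 0 were called, with sums of 31.3 to 168 and 9.37 to 20.6 CPM in air and 43.4 to 188 and 9.52 to 15.8 CPM in CNC. None of these markers was at 0 in all libraries. The summed pericyte level was 758 to 924 CPM in air and 668 to 719.7 CPM in CNC. The part of other cell types in the falls of pericyte and contractile genes was not tested.

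Circadian clock genes also differed between the groups, 7 of 14 tested being higher and 5 lower in CNC (13.2% and 11.4% of all tested genes). Of the variance of their leading component, 78.6% lay between air and CNC, and with that component as a covariate the standard errors of the members rose by a median factor of 1.92. In that fit 1.49% of all tested genes were called lower, in place of 11.4%. The pericyte members called were 2, Pdgfrb (log2 fold change -0.46, edgeR adjusted p = 0.0424) and Cspg4 (-0.54, edgeR adjusted p = 0.0423). The contractile members called were 9, of which 2 (Smtn and Myl9) had been called without the covariate and 7 had not (Actg2, Cnn1, Tpm2, Lmod1, Des, Ldb3 and Pln), while the other 8 calls were lost. Kcnmb2 was at -1.15 (edgeR adjusted p = 0.0574), Abcc9 at -0.22 (edgeR adjusted p = 0.231) and Kcnj8 at -0.36 (edgeR adjusted p = 0.442), and Synm turned to 0.03 (edgeR adjusted p = 0.905). The part of the clock in the changes was not tested.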

How the data were processed

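The deposited table gives, for 12 lung libraries, the authors' counts per gene symbol as whole numbers without normalization. Per the labels' protocols the libraries were made with a strand-specific kit for polyadenylated RNA. Tools named, without roles, in the submitters' processing notes are HISAT2 2.1.0, HTSeq 0.11.2, SAMtools 1.8, Trimmomatic 0.35, Cufflinks and bcl2fastq 2.19. The name of the deposited table gives the rat build Rnor6; its annotation and strand setting: not given in the sources used here.

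Groups came from the labelled treatment. Replicate numbers only name a rat, and each library is a separate rat. Rats were housed 3 per cage, and cage was not part of the fits, so likeness between rats of a cage was not tested. No library repeated another: chi-square per degree of freedom over the 30 within-group pairs was 2.69 to 8.36. The analysis used edgeR 4.0.16 in R 4.3.3: filterByExpr defaults (minimum count 10, minimum total 15), TMM, glmQLFit and glmQLFTest, with Benjamini-Hochberg adjustment over 15019 genes. A standard error is the log2 fold change divided by the square root of F. CPM are TMM-scaled, log2 CPM used a prior count of 2, and ratios added 0.5 to each count. The procedure was tested on simulated data. Alternatives used DESeq2 1.42.0, limma 3.58.1, other scalings, filters and thresholds, covariates and left-out rats. Symbols were matched to RefSeq promoters of GRCr8 for sequence. Figures used Python 3.11.15 and matplotlib 3.10.9.

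The members, companion and marker lists, ratio pairs and alternatives were chosen with earlier results of these data known. Srf, Palld, Anpep, Steap4, Prkg1, Mrvi1 and Itpr1 were named after their values were seen. By the naming rule all 31 members were to be named, with up to 4 called genes of smallest adjusted p per companion list. A gene that this rule names is not reported here. Amplified reads are not independent molecules.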

Additional observations from a re-analysis of the deposited data

Results flagged for a closer look

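For the 31 members and the 12 companion genes chosen by rule, each of the 86 sets of 6 values was searched for a rat whose gap to its nearest neighbour exceeded Dixon's 95% critical value of 0.625, and 7 were found; chance alone gives about 1 in 20. Among contractile members, 2 such values lay in air replicate 4, at 25.2 CPM for Cnn1 (other air rats 9.63 to 14.7) and 48.9 CPM for Tpm2 (29.5 to 36.2). CNC replicate 3 held 2 more, at 80 CPM for Acta2 (other CNC rats 59.1 to 63.8) and 111 CPM for Tagln (88 to 96.1). Smtn was high in CNC replicate 6, at 46.6 CPM (39.7 to 42.3). Of the companion genes, Gucy1b3 was low in air replicate 3, at 114 CPM (132 to 138), and Vcl was high in air replicate 6, at 434 CPM (409.7 to 418). No value of a pericyte member stood apart in this way.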

How the results depend on the processing

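Over 802 alternative values of single members 716 kept their direction and their side of the threshold, 58 lost a call, 19 gained one and 9 turned in sign. Smtn, Myl9, Pdgfrb and Cspg4 kept their calls in all 26 alternatives tried, Myh11 lost its call in 14, and Tagln, Ppp1r14a and Synpo2 lost theirs in 11 each. Members called lower numbered 17, against 10 at a threshold of 0.01 and 11 with the clock covariate (7 of them new), where the share of all tested genes called lower was 11.4%, 6.01% and 1.49%; contractile members numbered 10, against 5 at 0.01 and 6 to 11 with single rats left out; pericyte members numbered 7, against 2 with the clock covariate. Members called higher numbered 0, but 1 (Flna, contractile) with a stricter minimum count of 50, DESeq2, limma-voom or a threshold of 0.10, and 0 to 1 with single rats left out. The contractile median of -0.24 moved to -0.57 with the clock covariate, to -0.32 without CNC replicates 3 and 6 and to -0.12 without air replicates 4 and 5. Air replicates 4 and 5 were the highest air rats for 11 contractile members, and leaving them out shrinks the falls of those 11 by construction. Without those 2 rats Acta2, Actg2, Ldb3, Pln and Trpc6 turned to 0.07, 0.02, 0.08, 0.19 and 0.01, and Synm turned to 0.03 with the clock covariate; Kcnmb1 ran from -0.53 to 0.02 and Trpc6 from -0.15 to 0.02 with single rats left out. The ratio differences ran from -0.25 to -0.17 (Pdgfrb to Myh11) and from -0.25 to -0.13 (Cspg4 to Acta2) with single rats left out, passing without air replicate 4 (both) or 5 (the first alone), which were the lowest air rats in these ratios and whose removal is therefore no support. They reached -0.31 and -0.33 without both, and -0.21 and -0.16, not passing, without CNC replicates 3 and 6. The cause of these moves was not tested. No paired analysis was possible because the labels give no replicate numbers shared between the groups.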
